A study of Homo sapiens with 4 samples.

Results

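The genes described here are 10 members of the fibroblast growth factor (FGF) pathway and its feedback targets, namely the ligands FGF2 and FGF4, the receptors FGFR1, FGFR2, FGFR3 and FGFR4, the Sprouty inhibitors SPRY2 and SPRY4, and the ETS factors ETV4 and ETV5. They were taken as a list of symbols and not by a rule on their measured values, but with earlier results of these data known. All 10 were matched by symbol to the 60564 Ensembl gene identifiers counted in each library. RNA was compared by RNA-seq between Elf1 cells, a naïve human embryonic stem cell (ESC) line, in 2-D culture and in 3-D culture, with 2 independent biological replicates of each condition. The 2-D cells grew attached to Matrigel-coated plastic, and the 3-D cells were encapsulated as single cells in scaffolds self-assembled from PEG-8-SH and PEG-8-Acr and kept there for 21 days. By the study's methods, cells of both conditions were kept in a medium that itself contains FGF2, an inhibitor of the kinase MEK, the GSK3 inhibitor CHIR99021 and human LIF, and the cells had been moved from mouse feeder cells to feeder-free Matrigel before encapsulation. Both conditions come from 1 cell line. The 2-D cells were passaged routinely by the study's methods, and the labels give a time in culture for the 3-D cells only, so the time in the scaffold and the scaffold itself cannot be told apart.

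FGF ligands are secreted proteins that bind FGF receptors together with heparan sulfate chains at the cell surface. The receptors are tyrosine kinases that signal through the adaptor FRS2, RAS, RAF, MEK and ERK, and ERK signaling raises the transcription of ETV4 and ETV5, which encode DNA-binding ETS factors, and of SPRY2 and SPRY4, which encode inhibitors that act back on the same route. In human ESCs, FGF2 supports primed pluripotency, whereas naïve culture media commonly hold MEK inhibitors. Recombinant FGF2 in the medium is protein and is not counted by RNA-seq, and the activity of the receptors or of ERK was not measured in these libraries.

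The promoter of SPRY2 is shown because it was the 1 window among those of these genes that held the letters searched for an ETS factor's binding motif. Promoter sequences of RefSeq on GRCh38.p14 were given for 6 of the 10 genes, FGF2, FGFR2, FGFR3, FGFR4, SPRY2 and SPRY4, in 13 windows of 250 bases before a transcription start. The letters CCGGAA, the core of an ETS motif, were searched on both strands. They were found in 1 of the 13 windows, beside 14.5% of the 35116 windows of all genes. The window lies at chr13:80341127-80341376 on the minus strand, in no annotated exon of SPRY2, and the match, in capitals, begins 142 bases before the transcription start. It is a match of letters and not a measured binding site.
SPRY2 promoter, 5′ to 3′: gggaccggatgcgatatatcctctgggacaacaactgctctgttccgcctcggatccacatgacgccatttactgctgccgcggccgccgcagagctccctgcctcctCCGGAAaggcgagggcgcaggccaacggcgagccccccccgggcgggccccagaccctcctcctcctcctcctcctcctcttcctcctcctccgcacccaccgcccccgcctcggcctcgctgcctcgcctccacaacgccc

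Library totals ranged from 18276147 to 33833778 counts, and both 2-D libraries were deeper than both 3-D libraries. Values per library are given as CPM, counts scaled to a common library size with edgeR's TMM normalization, and each log2 fold change is 3-D over 2-D with its standard error (SE) from edgeR's quasi-likelihood test. P-values were adjusted by the Benjamini-Hochberg method over the 22555 genes left by edgeR's filter for low counts, and a gene is called when its adjusted p is below 0.05. The counts of the 10 genes ranged from 273 to 11726 in a library, so all 10 passed the filter. The cells' labelled type was checked on marker lists. Summed levels of the 10 pluripotency markers were between 5330 and 5613 CPM. The 10 naïve markers, of which FGF4 is 1, summed to between 127 and 139 CPM, with KLF5 at 46.9 to 57.2, TFCP2L1 at 22.2 to 23.8, DNMT3L at 14.6 to 17.9, KLF4 at 9.26 to 10.4, SUSD2 at 6.36 to 8.42 and DPPA3 at 5.75 to 7.43 CPM, and with KLF17 at 0.465 to 1.07, ARGFX at 0.348 to 0.446 and DPPA5 at 0 to 0.130 CPM. The 10 primed markers, which include FGF2, summed to between 1995 and 2073 CPM. Of the 10 naïve markers, DPPA5 did not pass the filter on low counts, and KLF17 and ARGFX were near 0.

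None of the 10 FGF pathway genes changed between 2-D and 3-D culture at an adjusted p below 0.05 in edgeR's quasi-likelihood test, beside 7.90% of all tested genes that were called. FGF2, SPRY4 and ETV4 had an unadjusted p below 0.05 in edgeR's quasi-likelihood test, 3 of 10 beside 21.3% of all tested genes. DESeq2 also called none of the 10, with 2 of them below 0.05 unadjusted, and 3.52% of all tested genes. Nor was any of them called by edgeR's likelihood ratio test, by limma-trend, with a replicate block or with offsets for length and GC content, which called 5.05%, 6.83%, 9.61% and 7.58% of all tested genes. The fitted log2 fold changes lay between −0.14 (ETV5) and 0.10 (SPRY4), and 4 genes were higher and 6 lower in 3-D. Their median was −0.02, beside −0.0001 over all tested genes. The median size of the change, without its sign, was 0.04 for the 10 genes and 0.13 over all tested genes. Over the 8098 tested genes whose mean counts lay within the range of the 10 genes, from 428 to 8694, the median size was 0.08 and 15.7% were called. The 95% intervals of the 10 changes reached at most from −19.2% to 11.9%, and 7 of the 10 intervals held 0. In 6 of the 10 genes the 2-D and 3-D libraries did not overlap, beside 50.5% of all tested genes, with SPRY4 and ETV4 higher and FGF2, FGFR3, SPRY2 and ETV5 lower in both 3-D libraries.

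**Figure D1:**
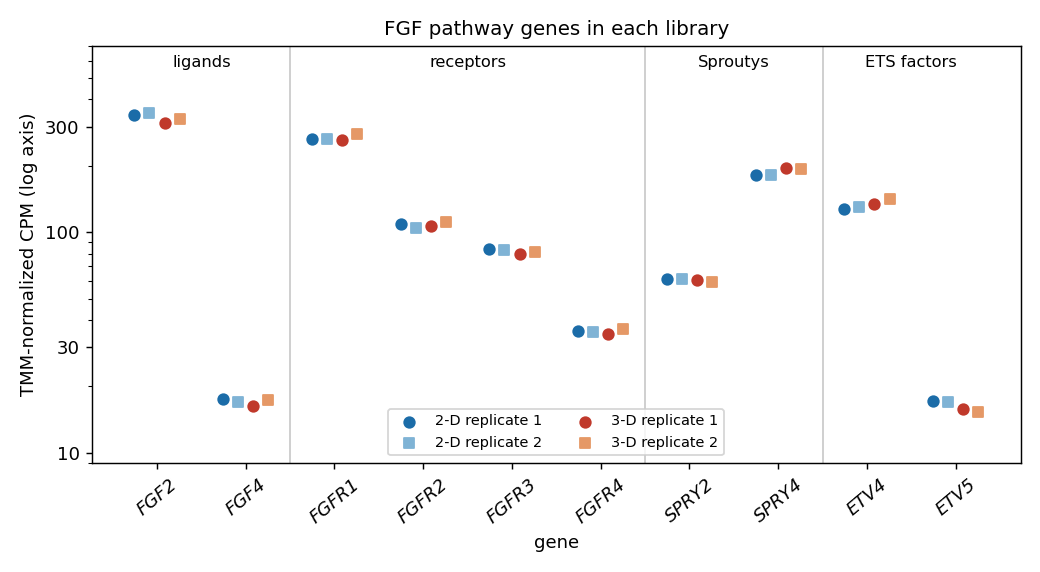
Points are the TMM-normalized CPM of each of the 10 genes, on a log axis, in the 4 libraries, blue for 2-D and red or orange for 3-D, with circles for replicate 1 and squares for replicate 2 and the genes set out by role. The 4 points of each gene lie close together, with condition means from 17.1 (2-D) and 15.5 (3-D) CPM for ETV5 to 344 and 321 CPM for FGF2, and heights of different genes also depend on their lengths.

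FGF2 (chr4:122826682-122898236, plus strand), the ligand also supplied in the medium, had the most counts of the 10 in every library. Its CPM was 341 and 348 in 2-D and 314 and 328 in 3-D. Both 3-D libraries were below both 2-D libraries, and the higher 3-D library lay closer to the lower 2-D library than to the other 3-D library. The log2 fold change was −0.10 (SE 0.0323, n = 2 per condition), a difference of −6.72% with a 95% interval from −11.1% to −2.08%. It did not pass edgeR's quasi-likelihood test (adjusted p = 0.0829). Of the exon bases of FGF2, 11.8% overlap those of NUDT6 on the opposite strand, and the strand setting of the counting is not stated, so reads there cannot be assigned to 1 of the pair. NUDT6 itself, a Nudix hydrolase gene, had 69.6 and 73.0 CPM in 2-D and 70.4 and 77.5 CPM in 3-D, and its log2 fold change was 0.05 (adjusted p = 0.605, edgeR quasi-likelihood test).

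FGF4 (chr11:69771022-69775341, minus strand), a ligand that pluripotent cells of the early embryo make themselves, had 17.5 and 16.9 CPM in 2-D and 16.3 and 17.2 CPM in 3-D. The libraries of the conditions overlapped. The log2 fold change was −0.04 (SE 0.0782), with a 95% interval from −13.5% to 9.5% and an adjusted p of 0.841 in edgeR's quasi-likelihood test. FGF4 had between 309 and 603 counts in a library, which gave it, with ETV5, the wider intervals of the set.

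The 4 receptor genes were all detected, and none passed the test. FGFR1 (chr8:38400215-38468834, minus strand), the receptor with the most counts, had 265 and 265 CPM in 2-D and 262 and 278 CPM in 3-D, the 3-D libraries lying on either side of the 2-D libraries. Its log2 fold change was 0.03 (SE 0.0336), with a 95% interval from −3.25% to 7.05% (adjusted p = 0.741, edgeR quasi-likelihood test). Exons of LETM2 and of the gene ENSG00000255201 overlap those of FGFR1 on the opposite strand, over 0.8% and 2.2% of its exon bases. ENSG00000255201 was called lower in 3-D (log2 fold change −0.35, adjusted p = 0.0418, edgeR quasi-likelihood test), and its part in the value of FGFR1 was not tested. FGFR2 (chr10:121478332-121598458, minus strand) had 108 and 105 CPM in 2-D and 107 and 112 CPM in 3-D, again overlapping. Its log2 fold change was 0.03 (SE 0.0342), with a 95% interval from −2.92% to 7.61% (adjusted p = 0.674, edgeR quasi-likelihood test).

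FGFR3 (chr4:1793293-1808872, plus strand) was the receptor whose libraries did not overlap between conditions, at 83.5 and 83.2 CPM in 2-D and 79.9 and 81.1 CPM in 3-D. The lower 3-D values gave a log2 fold change of −0.05 (SE 0.0338), with a 95% interval from −8.24% to 1.59% (adjusted p = 0.442, edgeR quasi-likelihood test). With offsets for length and GC content it was −0.11 (adjusted p = 0.0695). FGFR4 (chr5:177086905-177098144, plus strand), which pairs with the co-receptor KLB to bind FGF19, had 35.6 and 35.3 CPM in 2-D and 34.6 and 36.3 CPM in 3-D. Its log2 fold change was −0.0021 (SE 0.0583), the smallest of the 10, with a 95% interval from −8.54% to 9.02% (adjusted p = 0.991, edgeR quasi-likelihood test). For each of the 4 receptors the interval of the reported fit thus excluded a change of 10% in either direction.

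The fitted changes of the Sprouty genes had opposite signs, but neither gene was called and the interval of SPRY2 held 0. SPRY4 (chr5:142310427-142326455, minus strand) had 182 CPM in both 2-D libraries and 196 and 193 CPM in 3-D. Both 3-D libraries were above both 2-D libraries. The libraries of each condition lay close together, but 2 libraries measure a spread poorly. The log2 fold change was 0.10 (SE 0.0294), a difference of 7.07% with a 95% interval from 2.44% to 11.9%, and it did not pass edgeR's quasi-likelihood test (adjusted p = 0.062). SPRY2 (chr13:80335976-80341126, minus strand), whose promoter is shown above, had 61.0 and 61.3 CPM in 2-D and 60.4 and 59.3 CPM in 3-D. The 3-D libraries were below the 2-D libraries by little, and the log2 fold change was −0.03 (SE 0.039), with a 95% interval from −7.71% to 3.8% (adjusted p = 0.726, edgeR quasi-likelihood test).

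The fitted changes of the ETS factor genes, too, lay on either side of 0, but neither gene was called and the interval of ETV5 held 0. ETV4 (chr17:43527844-43579620, minus strand) had 128 and 131 CPM in 2-D and 134 and 141 CPM in 3-D, without overlap. The log2 fold change was 0.09 (SE 0.033), a difference of 6.48% with a 95% interval from 1.32% to 11.9%, and it did not pass edgeR's quasi-likelihood test (adjusted p = 0.127). With offsets for length and GC content the log2 fold change was 0.05 (adjusted p = 0.441). Of its exon bases 1.9% overlap those of DHX8, an RNA helicase gene on the opposite strand that was called higher in 3-D (log2 fold change 0.14, adjusted p = 0.020, edgeR quasi-likelihood test), and the part of DHX8 in the value of ETV4 was not tested. ETV5 (chr3:186046314-186110318, minus strand) had 17.2 and 17 CPM in 2-D and 15.8 and 15.2 CPM in 3-D, both 3-D libraries being lower. Its exons share 2.8% of their bases with DGKG, which had 22 counts over the 4 libraries. This was the change of the largest size among the 10, with a log2 fold change of −0.14 (SE 0.0779), and its 95% interval ran from −19.2% to 2.13% (adjusted p = 0.344, edgeR quasi-likelihood test).

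**Figure D2:**
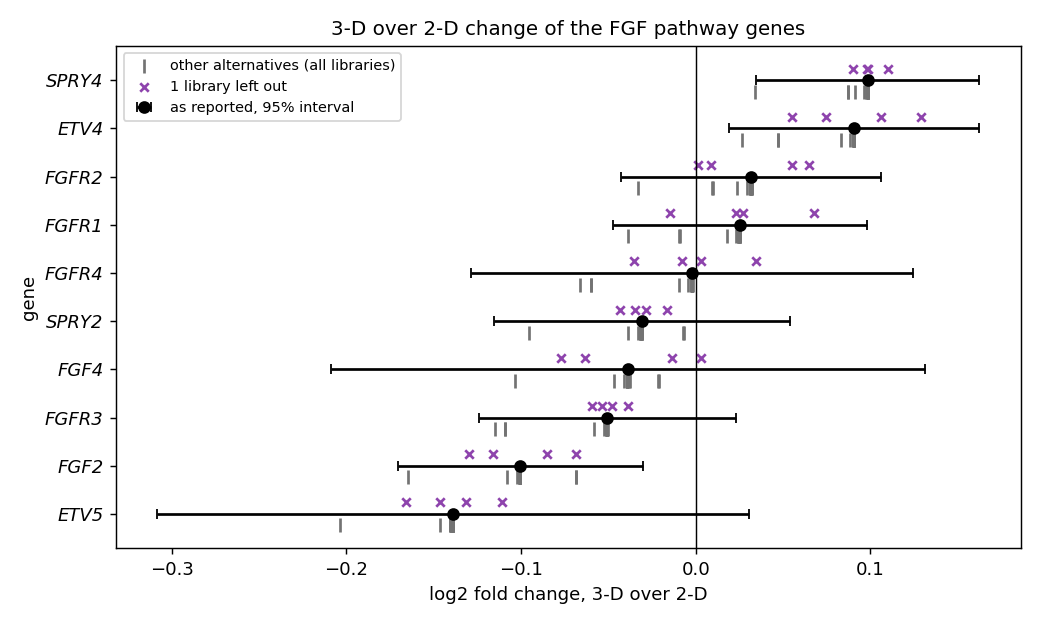
Black points are the log2 fold changes of 3-D over 2-D with 95% intervals from edgeR's quasi-likelihood fit, grey ticks the values under alternative settings with all libraries, and purple crosses the values with 1 library left out. SPRY4, ETV4 and FGF2 are the genes whose intervals do not reach 0, and FGFR1, FGFR2, FGFR4 and FGF4 are those whose values fall on both sides of 0 among the alternatives.

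Calls of these genes depended on single libraries and on the scaling. Without 3-D replicate 1, edgeR's quasi-likelihood test called ETV4 (adjusted p = 0.00523) and SPRY4 (adjusted p = 0.0366), where 10.7% of all tested genes were called. Without 3-D replicate 2 it called FGF2 (adjusted p = 0.00064) and SPRY4 (adjusted p = 0.00806), beside 9.74% of all tested genes. Without 2-D replicate 1 or 2-D replicate 2 none of the 10 was called, beside 5.22% and 4.27% of all tested genes. With all libraries, FGF2 was called under library size scaling alone (adjusted p = 0.00911) and without the filter on low counts (adjusted p = 0.016, edgeR quasi-likelihood test), where 10.6% and 5.89% of all tested genes were called. The fold change of SPRY4 stayed between 0.09 and 0.11 with any 1 library left out, and that of FGF2 between −0.13 and −0.07. With 1 library left out, the lone library of its condition is assumed to vary as the libraries of the other condition do.

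**Figure D3:**
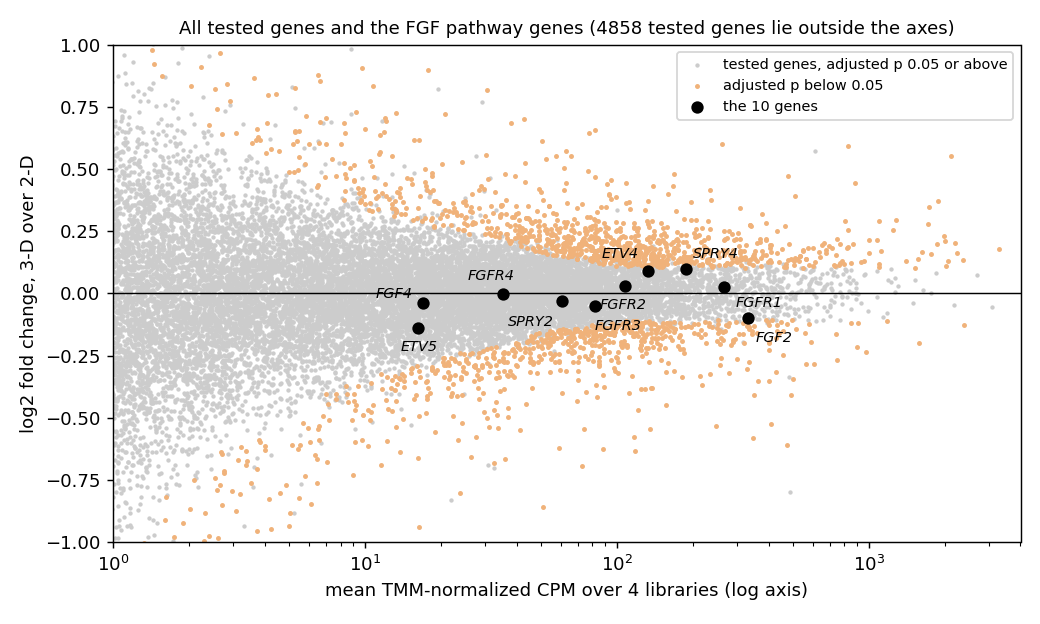
Each point is a tested gene, with its mean TMM-normalized CPM on a log axis and its log2 fold change of 3-D over 2-D, orange where the adjusted p is below 0.05 and black for the 10 FGF pathway genes. The 10 genes lie among the grey points between −0.14 and 0.10, with SPRY4, ETV4 and FGF2 near the edge where called genes begin.

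Levels can be compared between genes only per length. In CPM per kilobase of merged exons, averaged over the 4 libraries, the order was FGF2 with 48.9 ± 2.17 (SD, n = 4 libraries), ETV4 with 38.0 ± 1.64, SPRY4 with 28.7 ± 1.14 and SPRY2 with 18.8 ± 0.275. The receptors followed, FGFR3 with 16.9 ± 0.357, FGFR1 with 15.5 ± 0.401, FGFR4 with 7.37 ± 0.148 and FGFR2 with 5.73 ± 0.149. FGF4 with 5.37 ± 0.165 and ETV5 with 2.83 ± 0.164 were the lowest. The ranges over the libraries of neighbours in this order did not overlap, but the order depends on the length used. FGFR1 and FGFR2 have 17201 and 18813 merged exon bases against 6216 and 6964 in their longest transcripts, and per kilobase of longest transcript FGFR1 was at 43.0 and FGFR2 at 15.5 CPM. ETV4 then came first at 57.2 CPM per kilobase, above FGF2 at 48.9, and FGFR1 followed these. Against all tested genes, levels per kilobase of merged exons ranged from percentile 96.5 for FGF2 to percentile 52.1 for ETV5.

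Count ratios between paralogues within a library do not depend on the scaling of libraries. They were chosen after the values were seen and carry no test, and with 2 libraries against 2 an exact two-sided permutation test cannot give a p below 0.333. The ratio of SPRY4 to SPRY2 was 2.98 and 2.96 in 2-D culture and 3.24 and 3.26 in 3-D culture, a mean 9.42% higher in 3-D. The ratio of ETV4 to ETV5 was 7.44 and 7.68 in 2-D and 8.48 and 9.28 in 3-D, 17.4% higher. In both pairs the member with more counts took a larger part in 3-D, without overlap between conditions. Lack of overlap was not particular to them, as 8 of the 9 pairs compared did not overlap. The share among pairs of other genes was not computed.

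The ratio of FGF2 to FGF4 was 19.4 and 20.6 in 2-D and 19.3 and 19.0 in 3-D, a mean difference of −4.29%. Among the receptors, the ratio of FGFR1 to FGFR2 overlapped between conditions, at 2.44 and 2.53 in 2-D and 2.46 and 2.49 in 3-D. Ratios of FGFR1 and of FGFR2 to FGFR3 were 5.39% and 5.89% higher in 3-D, and those to FGFR4 were 1.87% and 2.37% higher. The ratio of FGFR3 to FGFR4 differed by −3.31%. The receptor pairs share genes and are not independent of each other.

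**Figure D4:**
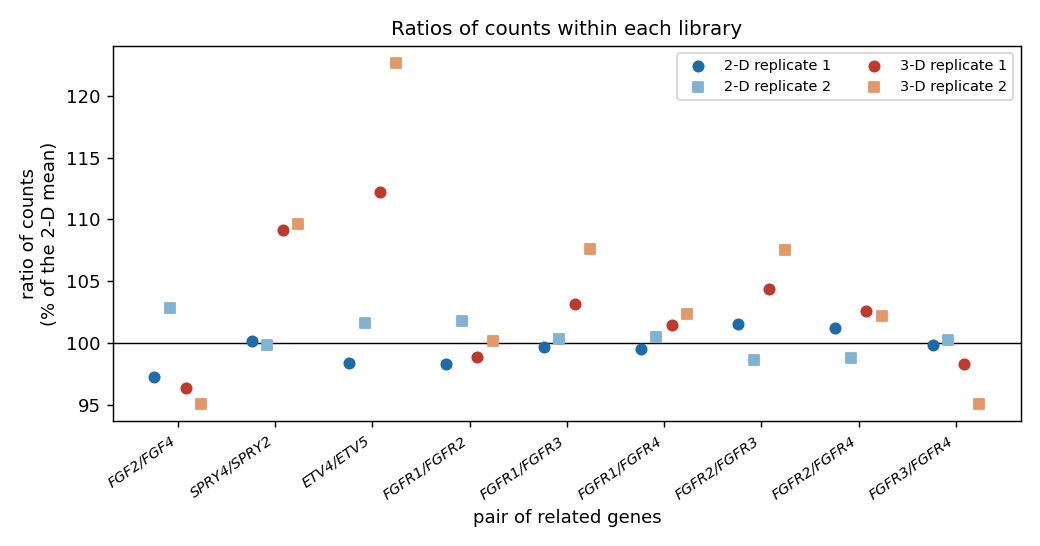
Points are the ratios of the counts of 2 related genes in each of the 4 libraries, for 9 pairs along the horizontal axis, as a percentage of the mean ratio of the 2-D libraries (line), on an axis that does not start at 0. The ratios of SPRY4 to SPRY2 and of ETV4 to ETV5 are higher in both 3-D libraries than in both 2-D libraries, and that of FGFR1 to FGFR2 is the only one to overlap.

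The other genes of the pathway were taken from 8 lists, written with earlier results of these data known. The lists held 98 genes, of which 85 were tested. Of these, 7 changed by edgeR's quasi-likelihood test, which is 8.24% beside 7.90% of all tested genes. HSPG2, SULF2, HRAS and FOSL1 were called higher in 3-D, which is 4 of 85 beside 4.54% of all genes. FGF23, MAP2K1 and PHLDA1 were called lower, 3 of 85 beside 3.36%. The calls of HSPG2, HRAS, FGF23 and MAP2K1 did not hold under every alternative, and the values of HRAS are uncertain, as given below. Unadjusted, 29 of the 85 were below 0.05 in edgeR's quasi-likelihood test, beside 21.3% of all tested genes. By list these were 8 of 15 ERK-responsive genes, 6 of 12 co-receptors and proteoglycans and 5 of 12 heparan sulfate enzymes. They were also 4 of 10 cascade genes, 3 of 15 negative regulators, 2 of 10 adaptors, 1 of 8 other ligands and 0 of 3 homologous factors. The median log2 fold change over the 85 was 0.05. The medians of single lists ran from −0.04 to 0.10.

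Among 16 other FGF ligands, 8 were tested and 1 was called. FGF23, a hormone of phosphate balance, had 0.900 and 0.909 CPM in 2-D and 0.389 and 0.167 CPM in 3-D, with 3 to 31 counts in a library, and a log2 fold change of −1.65 (adjusted p = 0.0369, edgeR quasi-likelihood test). The call was lost without 2-D replicate 1, 2-D replicate 2 or 3-D replicate 2, with adjusted p = 0.133, 0.14 and 0.168 in the same test, and the log2 fold change ran from −2.40 without 3-D replicate 1 to −1.21 without 3-D replicate 2. FGF8, FGF18 and FGF19, the other ligands with the highest levels or lowest p-values, were at 19.3 to 21.9, 8.62 to 10.3 and 10.9 to 12.2 CPM over the libraries and were not called. None of the 3 tested intracellular FGF homologous factors, which are not secreted ligands, was called by edgeR's quasi-likelihood test or by DESeq2, and 0 were below 0.05 unadjusted in the former. FGF13 was at 60.2 to 63.4 CPM, FGF12 at 3.83 to 5.11 CPM and FGF14 at 0.223 to 0.523 CPM.

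Of 14 co-receptors and heparan sulfate proteoglycans, 12 were tested, and HSPG2, which encodes the basement membrane proteoglycan perlecan, rose. It had 67.3 and 67.9 CPM in 2-D and 76.9 and 77.8 CPM in 3-D, a log2 fold change of 0.20 (SE 0.0354, adjusted p = 0.00488, edgeR quasi-likelihood test). The call was lost with DESeq2 at nearly the same log2 fold change of 0.1942 (adjusted p = 0.0626), and when length and GC content were fitted as offsets, where the log2 fold change was 0.11 (adjusted p = 0.0986). GPC4, a glypican, had the highest level of the list at 1202 to 1258 CPM and a log2 fold change of 0.04 that did not pass. SDC3, a syndecan (log2 fold change 0.21, adjusted p = 0.0965, edgeR quasi-likelihood test), and KLB (−0.46, adjusted p = 0.128), the co-receptor named above, did not pass either.

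All 12 heparan sulfate enzymes were tested. SULF2, an extracellular sulfatase that trims sulfates from heparan sulfate, rose from 122 and 120 CPM in 2-D to 140 and 135 CPM in 3-D, a log2 fold change of 0.19 (SE 0.0308, adjusted p = 0.00255, edgeR quasi-likelihood test). Its paralogue SULF1 was low, at 2.76 and 2.27 CPM in 2-D and 3.41 and 4.74 CPM in 3-D, with a log2 fold change of 0.68 that just missed the threshold (adjusted p = 0.0529, edgeR quasi-likelihood test). With a replicate block SULF1 was called beside SULF2. HS6ST1 and NDST1, which add sulfates to the chains, had log2 fold changes of 0.12 and 0.05 and were not called, and HS6ST1 has a near-identical copy.

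None of the 10 receptor adaptors was called by edgeR's quasi-likelihood test or by DESeq2, and 2 of them were below 0.05 unadjusted in the former. PLCG1, a phospholipase that binds the receptors, was at 192 to 210 CPM, CBL, a ubiquitin ligase, at 187 to 200 CPM, and PTPN11, the phosphatase SHP2, at 363 to 378 CPM. Their log2 fold changes were 0.08, −0.07 and 0.02.

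In the RAS to ERK cascade, 10 of 10 genes were tested and 2 were called. MAP2K1, which encodes MEK1, fell from 58.8 and 57.6 CPM in 2-D to 51.9 and 52.8 CPM in 3-D, a log2 fold change of −0.15 (SE 0.0422, adjusted p = 0.0432, edgeR quasi-likelihood test). The call was near the threshold. DESeq2, the likelihood ratio test, limma-trend and the quasi-likelihood test without legacy mode (adjusted p = 0.0562) did not make it, and it was lost whichever of the 4 libraries was left out.

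HRAS had 62 and 36 counts in 2-D culture and 101 and 148 counts in 3-D culture, a log2 fold change of 2.12 (SE 0.256, adjusted p = 0.000371, edgeR quasi-likelihood test). It has a near-identical copy, how reads mapping to several places were counted is not stated, and its values are uncertain. ARAF, MAPK3 and NRAS had log2 fold changes of 0.13, 0.26 and −0.06 and were not called.

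None of 15 tested other negative regulators was called by edgeR's quasi-likelihood test or by DESeq2, and 3 of them were below 0.05 unadjusted in the former. IL17RD, a membrane inhibitor also known as SEF, was at 183 to 199 CPM with a log2 fold change of −0.08 (adjusted p = 0.186, edgeR quasi-likelihood test), DUSP7, an ERK phosphatase, was at 0.20 (adjusted p = 0.106), and NF1, a RAS GTPase activator, at 0.02. DUSP6, the ERK phosphatase commonly read as an FGF target, was added after its values were seen. It had 1.86 and 2.27 CPM in 2-D and 2.53 and 3.29 CPM in 3-D, a log2 fold change of 0.49 that did not pass (adjusted p = 0.187, edgeR quasi-likelihood test). Per kilobase of merged exons, DUSP6 was at 0.645 CPM, below each of the 10 genes. The other phosphatases of the list were at 0.380 (DUSP9), 1.94 (DUSP4), 4.10 (DUSP7) and 14.1 (DUSP5) CPM per kilobase, also added after their values were seen except for DUSP7.

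Of 16 other genes that respond to ERK, 15 were tested and 2 were called, in opposite directions. FOSL1, an AP-1 subunit, rose from 13.7 and 15.03 CPM in 2-D to 20.8 and 19.8 CPM in 3-D, a log2 fold change of 0.50 (SE 0.0817, adjusted p = 0.0025, edgeR quasi-likelihood test). PHLDA1, a pleckstrin-homology-like protein gene, fell from 279 and 273 CPM to 250 and 238 CPM, a log2 fold change of −0.18 (SE 0.033, adjusted p = 0.00529, edgeR quasi-likelihood test). MYC, EGR1, CCND1 and MCL1 had log2 fold changes of 0.15, 0.36, 0.04 and −0.08, and none of them was called. The calls of FOSL1, PHLDA1 and SULF2 held under all 17 alternatives run.

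**Figure D5:**
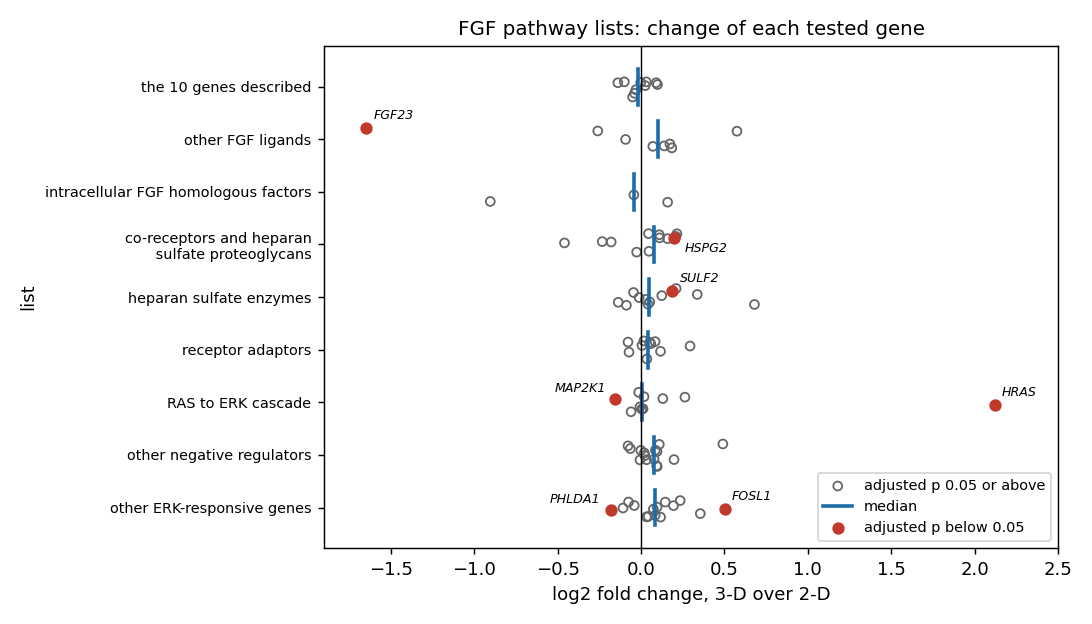
Each circle is a tested gene, placed by its log2 fold change of 3-D over 2-D, with 1 row per list, blue lines at the list medians and filled red circles for genes with an adjusted p below 0.05. The 10 genes described have no filled circle and span −0.14 to 0.10, and 7 genes of the other lists are filled, from FGF23 at −1.65 to HRAS at 2.12.

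Some markers of another cell type moved with the 3-D condition. Of 10 fibroblast markers 8 were tested, and COL1A1, COL3A1, THY1 and POSTN, 4 of 8, were called higher in 3-D beside 4.54% of all genes. DESeq2 called COL1A1, COL3A1 and THY1 higher but not POSTN, 3 of 8 beside 3.52% of all tested genes called in either direction. The summed level of the list was 543 and 534 CPM in 2-D and 553 and 605 CPM in 3-D. COL3A1 had 9.93 and 10.03 CPM in 2-D and 15.2 and 17.9 CPM in 3-D. COL1A2, the member with the highest CPM at 301 to 325, had a log2 fold change of −0.04, PDGFRB one of 0.02, PDGFRA one of 0.30 and FAP one of 1.01, and none of these was called. DCN and LUM, with 2 to 17 counts in a library, did not pass the filter. The part of these markers in the values of the FGF pathway genes was not tested. In bulk RNA, more cells of a type and more RNA per cell cannot be told apart.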

How the data were processed

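Ribosomal RNA was depleted and 2 libraries were sequenced for each of the 2-D and 3-D conditions. The authors trimmed reads with Trim Galore 0.6.3, mapped them to hg38 with HISAT2 2.1.0 and counted them on GENCODE release 30 genes with featureCounts 1.6.4 (versions from the submitters' processing notes). Whole-number counts of each gene were deposited for every library. The deposited normalized signal is those counts over 1 DESeq2 size factor per library. The same table holds the authors' DESeq2 fold changes, statistics and p-values, which were not used. All columns of values per library were mapped to a sample.

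Symbols and positions are from GENCODE release 44 (60295 of 60564 identifiers matched). The 269 others held 0.122% of counts. Counts were tested with edgeR 4.0.16 in R 4.3.3 (TMM, filterByExpr, quasi-likelihood in legacy mode, condition alone, Benjamini-Hochberg adjustment). SE is the size of the log2 fold change over the square root of F. The biological coefficient of variation was 5.1%. Alternatives were the likelihood ratio test, DESeq2 1.42.0, the test without legacy mode, DESeq2 size factors, unscaled library sizes, TMM leaving out ribosomal protein, histone and mitochondrial genes, no filter, a minimum of 10 counts in each library, a replicate block, offsets for length and GC content (splines, 5 degrees of freedom) alone and with the block, limma-trend (limma 3.58.1) on log2 of the deposited normalized signal plus 1, each library left out, and a crossed pairing, which was added after seeing the data. A near-identical copy is an alignment elsewhere in hg38 (minimap2 2.31-r1302) over at least 80% of the longest transcript at 98% identity or more. None of the 10 genes has one.

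The 10 genes and all lists were chosen with earlier results of these data known. Named from each wider list were every called gene, the 2 uncalled genes with the lowest p and the 2 with the highest CPM. The procedure was tested on simulated counts. Of a wider list, 2 genes that the rule takes are not reported here, and 1 of them is left out of the list counts.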

Additional observations from a re-analysis of the deposited data

How the results depend on the processing

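Of the 170 values of the 10 genes under 17 alternatives, 156 kept their direction and their side of the threshold, 6 passed it and 8 changed direction. The number of the 10 genes called was 0 as reported. It was 1 (FGF2) with library size only (log2 fold change −0.165, adjusted p = 0.00911 in edgeR's quasi-likelihood test) and 1 (FGF2) without the filter (−0.103, adjusted p = 0.016), and it ranged from 0 to 2 with 1 library left out. Adjusted p ranged from 0.00911 to 0.365 for FGF2 and from 0.063 to 0.55 for SPRY4 over the 13 alternatives with all libraries, and none called SPRY4. Direction changed for FGFR1 with library size only (−0.0389), with offsets for length and GC content (−0.0089) and with a replicate block and these offsets (−0.0093), and for FGFR2 with library size only (−0.0328). The offsets also moved ETV4 from 0.0906 to 0.0471 and FGFR3 from −0.0506 to −0.1094, and library size only moved ETV4 to 0.0263 and SPRY4 to 0.0341. Library size only moved the median of all genes by −0.06 and the split of calls from 1024 higher and 758 lower to 514 higher and 1879 lower.

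With 1 library left out, log2 fold changes ranged from 0.0553 to 0.1291 for ETV4, −0.1661 to −0.1111 for ETV5, −0.1296 to −0.0685 for FGF2, −0.0771 to 0.0029 for FGF4, −0.0147 to 0.0676 for FGFR1, 0.0012 to 0.0648 for FGFR2, −0.0596 to −0.0385 for FGFR3, −0.0351 to 0.0343 for FGFR4, −0.0434 to −0.0166 for SPRY2 and 0.0898 to 0.1098 for SPRY4. Signs of FGF4 (without 3-D replicate 1), FGFR1 (without 3-D replicate 2) and FGFR4 (0.0032 without 2-D replicate 1 and 0.0343 without 3-D replicate 1) changed. Of all genes, 1782 were called as reported, 794 by DESeq2, 1139 by the likelihood ratio test and 974 to 2643 with 1 library left out. Of the 85 other pathway genes, 7 were called as reported, 3 by DESeq2 (which gave no adjusted p for FGF23 and HRAS), 16 with library size only and 5 to 16 with 1 library left out. The cause of these differences was not tested.

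Libraries of equal replicate number did not deviate together (correlation −0.105 over 13142 genes), so the numbers were not taken to pair them. The replicate block called 2167 genes, 8 of the other pathway genes and 0 of the 10, and a crossed pairing 2212 genes. With 2 libraries per condition and the 3-D libraries the shallower, the intervals above bound what could be seen. FGF4 and ETV5, with the fewest counts, have the widest.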

Other observations

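Levels of markers of other lineages differed between the lists. Of 10 mesoderm and endoderm, 10 neural ectoderm and 10 trophoblast markers, 6 of each were tested. None was called by edgeR's quasi-likelihood test or by DESeq2, with 2, 1 and 1 of them below 0.05 unadjusted in the former. Over all tested genes 21.3% were below 0.05 unadjusted in that test. Of the pluripotency, primed and naïve lists, 6 of 10, 6 of 10 and 2 of 9 tested genes were. GATA6, an endoderm factor, had 0.842 and 1.10 CPM in 2-D and 2.34 and 1.51 CPM in 3-D, a log2 fold change of 1.0007 (adjusted p = 0.0516, edgeR quasi-likelihood test). It was called with the replicate block, with and without offsets, with the crossed pairing, by the likelihood ratio test, with a minimum of 10 counts in each library, without a filter and without 3-D replicate 2. HAND1 of the trophoblast list had 0.610 and 0.681 CPM in 2-D and 1.27 and 1.28 CPM in 3-D, a log2 fold change of 0.98 (adjusted p = 0.0695), and was called by the likelihood ratio test, with that minimum and without a filter. MAP2 of the neural list was called without 3-D replicate 2. Summed levels of the trophoblast list were between 4.79 and 6.52 CPM over the 4 libraries. The mesoderm and endoderm list summed to between 73.7 and 79.9 CPM, with MIXL1 the highest at 31.9 to 34.9 CPM. The neural ectoderm list summed to between 595 and 621 CPM, most of it from NES at 577 to 602 CPM. Of the primed list, SFRP2, SALL2, TCF7L1 and CDH2 were called higher in 3-D, 4 of 10 beside 4.54% of all genes, while FGF2 of the same list was not called. The mean counts of these 4 lay between 428 and 8694, a range in which 15.7% of tested genes were called in either direction. Of the naïve list KLF5, 1 of 9 tested, was called higher, with 46.9 and 48.0 CPM in 2-D and 56.2 and 57.2 CPM in 3-D, while FGF4 of the same list was not called. Of the pluripotency list, L1TD1 was called higher, 1 of 10. DESeq2 called L1TD1 and TDGF1, and the replicate block L1TD1, TDGF1 and SOX2, all higher. The other alternatives with all libraries called 1 to 4 of the 10, always with L1TD1. DPPA4 was called lower in 3-D with library size only, by limma-trend, without the filter and without legacy mode. As reported, its log2 fold change was −0.09 and it was not called.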
